A study of Mus musculus with 6 samples.

Results

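The folate genes described here are a set of 9: the carriers Slc19a1 and Slc46a1 and the enzymes Mthfd1, Shmt1, Shmt2, Aldh1l1, Ftcd, Atic and Gart. They were chosen by gene name, because sulfasalazine is known to inhibit folate uptake, and not by a rule on their values. Earlier results of these data were known at the time. Each was taken from the row of the deposited table that carries its name and an Ensembl transcript, which gave 9 rows of 42612. Each of the 9 had a single such row.

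Folates carry single carbon units between metabolites. Cells take them up through carriers, and enzymes then load the carbon from serine, glycine, histidine or formate and pass it on to purines, thymidylate and methionine. The liver is the main folate store of the body and carries out much of this exchange, including the disposal of surplus carbon units.

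Liver RNA was sequenced from 6 male ICR mice, an outbred stock, given as 8 weeks old. The 3 sulfasalazine mice received 1000 mg/kg of the drug by oral gavage for 4 weeks, and the 3 control mice received the 0.1% DMSO vehicle alone. The label for housing gives 10 mice per cage and the label for treatment gives 10 mice per group, without saying whether cages followed groups, so a cage and the drug cannot be told apart. Values are FPKM, fragments scaled to length and to the library's mapped fragments, with no read counts beside them. Low values fell in steps whose size puts the 6 libraries at about 13600000 to 20000000 mapped fragments each; sulfasalazine mouse 2 was the shallowest and control mouse 2 the deepest. On that estimate between 82 and 216 fragments a mouse stood behind Slc19a1, the thinnest of the 9 genes, and between 9334 and 14982 behind Aldh1l1, the best covered.

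Summed FPKM lay between 224434 and 260047 per library. The libraries correlated at 0.901 to 0.919 within groups and 0.896 to 0.914 between groups (Pearson's r across the 11969 tested loci, which are not independent replicates). A protocol label speaks of an adipose type, so markers were checked. Alb, the albumin gene of hepatocytes, was at 14702 to 18897 FPKM in the 6 mice, while the adipocyte marker Adipoq was listed at 0 in 5 of them and Plin1 stayed at or under 0.0203 FPKM. Cidec, a fat droplet gene of the same list that fatty hepatocytes also make, was at 0.251 to 1.38 FPKM, highest in sulfasalazine mouse 1. In bulk tissue, fewer cells of a type and less RNA per cell cannot be told apart.

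Control mouse 3 stood apart in markers of other cells, with 153 FPKM summed over 6 Kupffer cell and macrophage genes against 30.4 to 53.2 in the other mice. Of that sum Lyz2, a lysozyme of myeloid cells, gave 84.5 FPKM, and the Kupffer cell gene Clec4f was at 33.9 FPKM against 20.2 to 25.3. Summed over 4 neutrophil genes, control mouse 3 had 13.8 FPKM against 0.534 to 1.33. Of that sum S100a9 gave 10.99 FPKM and S100a8 2.27. Ly6g, on the same list, was at 0.0856 FPKM there and was highest in sulfasalazine mouse 2, at 0.117. For 6 stellate cell genes the sum was 94.7 FPKM in control mouse 3 against 47.1 to 63.1 in the other mice. The fibrillar collagen Col1a1, on that list, was at 14.2 FPKM in control mouse 3 against 2.11 to 5.94. Reln, also on that list, was not highest there, at 7.62 FPKM against 8.39 in control mouse 2.

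The promoter windows of both carriers and of Shmt2 are shown here, because the carriers are the route of uptake that the drug is known to inhibit and because Slc46a1 and Shmt2 share a motif. Each runs 5′ to 3′ on the gene's own strand, from 250 bases before to 50 bases after a RefSeq start site in GRCm38.p6, and capitals mark the motif. The Slc19a1 window lies at chr10:77032489-77032788 on the plus strand and is the first of 2 start sites in the table. The Slc46a1 window lies at chr11:78465451-78465750 on the plus strand, and the Shmt2 window at chr10:127522395-127522694 on the minus strand.
Slc19a1: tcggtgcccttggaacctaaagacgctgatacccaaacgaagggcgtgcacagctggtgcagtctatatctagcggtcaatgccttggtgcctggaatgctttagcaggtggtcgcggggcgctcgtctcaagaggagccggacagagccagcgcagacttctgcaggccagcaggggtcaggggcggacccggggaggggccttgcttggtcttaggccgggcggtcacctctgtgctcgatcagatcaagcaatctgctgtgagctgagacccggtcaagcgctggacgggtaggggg
Slc46a1: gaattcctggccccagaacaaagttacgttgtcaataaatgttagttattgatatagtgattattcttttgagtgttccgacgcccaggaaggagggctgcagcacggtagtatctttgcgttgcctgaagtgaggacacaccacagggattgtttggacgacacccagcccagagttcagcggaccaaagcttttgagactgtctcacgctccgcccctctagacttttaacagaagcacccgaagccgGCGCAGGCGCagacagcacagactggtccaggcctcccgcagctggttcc
Shmt2: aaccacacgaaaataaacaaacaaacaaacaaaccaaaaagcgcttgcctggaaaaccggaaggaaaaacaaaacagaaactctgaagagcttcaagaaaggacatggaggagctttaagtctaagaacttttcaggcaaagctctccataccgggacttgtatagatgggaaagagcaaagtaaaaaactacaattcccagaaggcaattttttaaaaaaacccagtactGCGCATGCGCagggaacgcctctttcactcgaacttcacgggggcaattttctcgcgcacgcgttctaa

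The capitals are matches to the binding motif of the nuclear respiratory factor NRF1, with any base at its middle position and searched on both strands. The match in Slc46a1 is GCGCAGGCGC and begins at base 251 of the window, and the match in Shmt2 is GCGCATGCGC and begins at base 232. All 9 genes had a window, 10 windows in all, and 2 of the 9 genes held this motif, as did 4.6% of all 32851 windows in the table. Here and below the 9 are counted by gene and the table by window, which are unlike units. The E-box CACGTG was found in 1 gene, Atic, and in 7.15% of all windows. The amino acid response letters TGATGNAA were found in 0 of the 9 and in 3.97% of all windows. No match of one motif overlapped a match of another in these genes. The matches describe the letters only.

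In the livers of the treated mice, 0 of the 9 folate genes passed the test, in either direction. The test was limma on log2(FPKM + 1), with p-values adjusted over all 11969 loci that reached 1 FPKM in at least 3 libraries, and all 9 genes were among them. Over all tested loci 2 were called, or 0.0167%, so a count of 0 among 9 is what this background gives. At an unadjusted p under 0.05 the count was also 0 of 9, against 7.51% of all tested loci.

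Log2 fold changes of the 9 lay between -0.38 for Ftcd and 0.45 for Slc19a1. Of the 9, 5 were positive and 4 negative, with a median of 0.07 against 0.00 (-0.00206) over all tested loci. The median size of the change, whatever its direction, was 0.09 for the 9 and 0.16 over all tested loci. The values of treated and control mice overlapped for each of the 9, whereas the groups did not overlap at 13.2% of all tested loci. The 95% confidence intervals from limma lay inside a 2-fold change in either direction for all 9 genes on this scale, and for 8 of the 9, all but Slc19a1, with a pseudocount of 0.1 FPKM. Smaller changes, up to -0.86 for Ftcd and 0.92 for Slc19a1, are within those intervals.

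**Figure D1:**
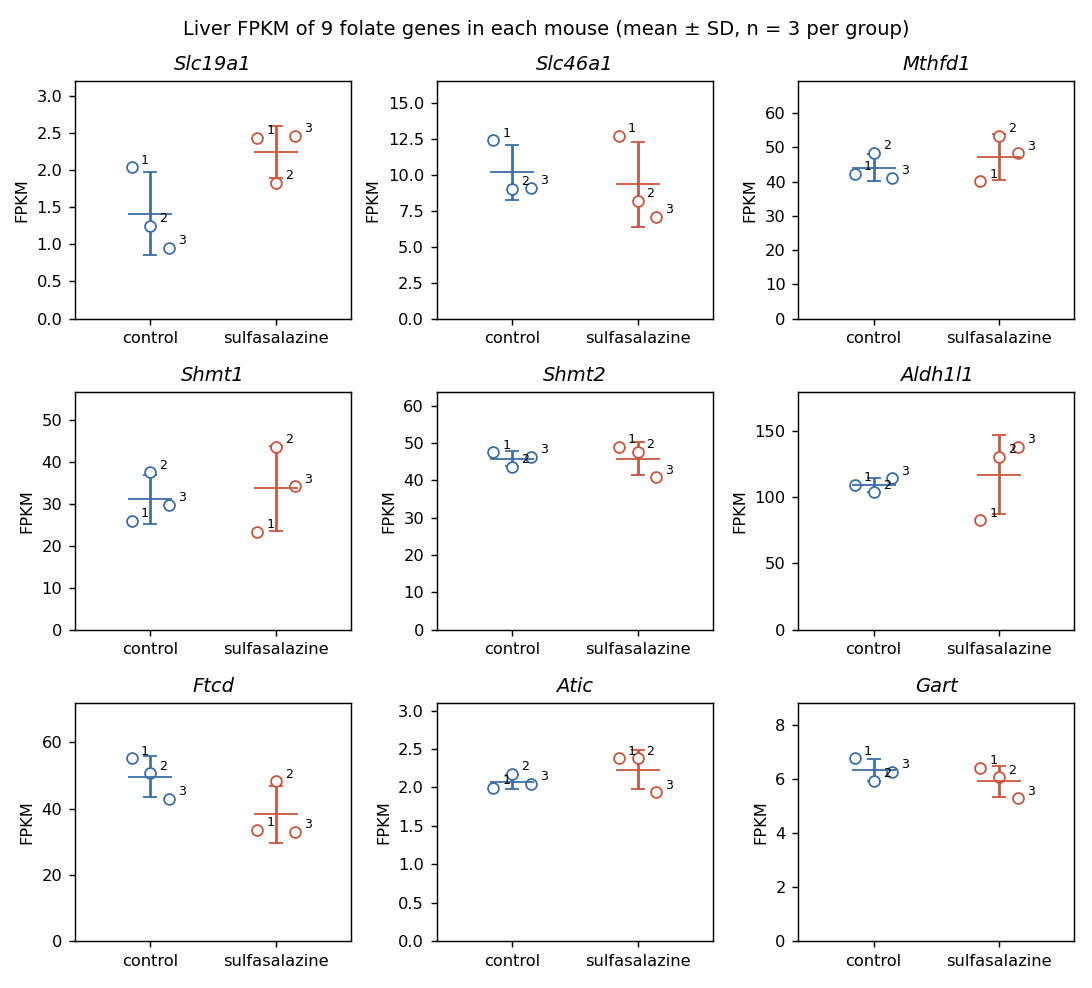
FPKM of each folate gene in each mouse, 1 panel per gene, with its own axis from 0; circles are mice, numbered by replicate, and bars are the mean ± SD of 3 mice. Treated and control values overlap in all 9 panels, and the means differ most, relative to their size, for Slc19a1 (1.41 and 2.24 FPKM) and Ftcd (49.6 and 38.3 FPKM).

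Of the carriers, Slc19a1 is the reduced folate carrier, which moves reduced folates across the plasma membrane in exchange for other anions. Its gene lies on chromosome 10 from 77032241 to 77061002, plus strand, in GRCm38. It was at 2.03, 1.25 and 0.950 FPKM in the controls and at 2.43, 1.83 and 2.46 FPKM in the treated mice. Control mouse 1 was above sulfasalazine mouse 2, and the other controls were below all treated mice. The means were 1.41 ± 0.560 and 2.24 ± 0.354 FPKM (SD, n = 3 each). The fold change was 0.45 on the log2 scale, with an SE of 0.20 and a 95% interval from -0.03 to 0.92 (limma, adjusted p = 0.691), the largest among the 9 genes. At these low levels the added 1 FPKM understates the ratio. With 0.1 FPKM added, the fold change was 0.68 on the log2 scale with a 95% interval from -0.05 to 1.42 (limma, adjusted p = 0.724).

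Slc46a1 is the proton-coupled folate transporter, known for folate absorption in the gut and also present in liver. It lies on chromosome 11 from 78465697 to 78472059, plus strand. Its values were 12.4, 9.03 and 9.12 FPKM in the controls and 12.7, 8.19 and 7.11 FPKM in the treated mice. Mouse 1 of each group was high and the other 4 were between 7.11 and 9.12. With means of 10.2 ± 1.93 and 9.34 ± 2.98 FPKM (SD, n = 3 each), the log2 fold change was -0.14 with a 95% interval from -0.71 to 0.44 (limma, adjusted p = 0.916).

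Among the serine enzymes, Shmt1 is the cytosolic serine hydroxymethyltransferase, which takes a carbon from serine and leaves glycine. The gene lies on chromosome 11 from 60788104 to 60811718, minus strand. Its RNA was at 26.0, 37.5 and 29.8 FPKM in the controls and at 23.3, 43.5 and 34.1 FPKM in the treated mice. Both the lowest and the highest value of the 6 belonged to treated mice. Its log2 fold change was 0.08 with a 95% interval from -0.55 to 0.72 (limma, adjusted p = 0.958), the widest interval of the 9.

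Shmt2, its mitochondrial counterpart, lies on chromosome 10 from 127517123 to 127522444, minus strand. The control mice had 47.5, 43.6 and 46.3 FPKM and the treated mice 48.9, 47.6 and 40.8 FPKM. These are the least variable values of the 9 genes, with the highest mouse 1.20 times the lowest. The means were 45.8 ± 2.0 and 45.8 ± 4.38 FPKM (SD, n = 3 each), and the log2 fold change was -0.00 (-0.0039) with a 95% interval from -0.32 to 0.31 (limma, adjusted p = 0.997). The ratio of Shmt1 to Shmt2 was 0.547, 0.860 and 0.643 in control and 0.477, 0.913 and 0.836 in treated mice, and the groups overlapped.

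Mthfd1 encodes the cytosolic enzyme that interconverts formyl, methenyl and methylene folates. Its gene lies on chromosome 12 from 76255298 to 76319803, plus strand. Mthfd1 was at 42.4, 48.5 and 41.1 FPKM in the controls and at 40.1, 53.4 and 48.2 FPKM in the treated mice. Sulfasalazine mouse 1 was the lowest and sulfasalazine mouse 2 the highest of the 6, as for Shmt1. The log2 fold change was 0.09 with a 95% interval from -0.29 to 0.47 (limma, adjusted p = 0.912). Sulfasalazine mice 1 and 2 were also the lowest and the highest for 3 of 6 pericentral markers and for 1 of 6 periportal markers, Gls2. Of the pericentral ones, the glutamine synthetase gene Glul was at 54.7 FPKM in sulfasalazine mouse 1 and 157 in mouse 2, Oat at 21.9 and 76.9, and Cyp2e1 at 1285 and 1897. The periportal Cyp2f2 ran the other way, at 869 and 440.2 FPKM, as did Pck1 at 492 and 219 and Sds at 8.87 and 6.79. Of the remaining periportal markers, Hal was nearly level at 30.7 and 30.0 FPKM, and Ass1 was at 224 and 240. The other pericentral markers departed from the pattern, with Rgn lowest in control mouse 1, Slc1a2 in control mouse 3 and Cyp1a2 in control mouse 2. Rgn and Slc1a2 were highest in sulfasalazine mouse 2, and Cyp1a2 in control mouse 1. How many of all tested loci were lowest in sulfasalazine mouse 1 and highest in sulfasalazine mouse 2 was not counted. Their share cannot exceed 13.5%, the share of all tested loci that were lowest in sulfasalazine mouse 1. Of the 6 mice, sulfasalazine mouse 2 was the highest at the largest share of tested loci. The marker counts thus have only an upper bound as a background. Summed over 6 genes, pericentral markers were at 1985 to 4376 FPKM in control and 1769 to 2617 in treated mice. The 4376 was in control mouse 1, where Cyp1a2 alone gave 2356.5 FPKM, against 194.6 to 380.1 in the other mice. Periportal markers, also summed over 6 genes, were at 1308 to 1468 FPKM in control and 981 to 1650 in treated mice. The part of these markers in the folate genes was not tested.

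Aldh1l1 encodes the formyltetrahydrofolate dehydrogenase, which burns surplus formyl groups to carbon dioxide and frees tetrahydrofolate. It lies on chromosome 6 from 90486427 to 90600203, plus strand. Its locus had 109.0, 104 and 114 FPKM in the controls and 82.5, 130.3 and 138 FPKM in the treated mice. The 3 controls lay between treated mice, with sulfasalazine mouse 1 below all of them and the other 2 above. The SD was 5.21 FPKM in control and 29.9 FPKM in treated mice around means of 109 and 117. Its log2 fold change was 0.07 with a 95% interval from -0.48 to 0.61 (limma, adjusted p = 0.960). This locus also holds a transcript of the long noncoding gene Gm45901, so its FPKM cannot be given to Aldh1l1 alone.

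Ftcd encodes formiminotransferase cyclodeaminase, the liver enzyme that passes the carbon of histidine breakdown to tetrahydrofolate. It lies on chromosome 10 from 76575648 to 76590338, plus strand. It was at 55.2, 50.7 and 43.0 FPKM in the controls and at 33.7, 48.2 and 32.9 FPKM in the treated mice. Sulfasalazine mouse 2 was above control mouse 3, and the other treated mice were below all controls. The means were 49.6 ± 6.17 and 38.3 ± 8.64 FPKM (SD, n = 3 each). The fold change was -0.38 on the log2 scale, with an SE of 0.20 and a 95% interval from -0.86 to 0.10 (limma, adjusted p = 0.741), the most negative of the 9.

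Of the purine synthesis enzymes, Gart encodes the protein whose formyltransferase adds the first folate-borne carbon of the purine ring. The Gart gene lies on chromosome 16 from 91621186 to 91646952, minus strand. Gart was at 6.79, 5.95 and 6.29 FPKM in the controls and at 6.41, 6.08 and 5.30 FPKM in the treated mice. Only sulfasalazine mouse 3 was below the control range. The log2 fold change was -0.09 with a 95% interval from -0.36 to 0.19 (limma, adjusted p = 0.890).

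Atic encodes the enzyme that adds the last such carbon and closes the ring. The Atic gene lies on chromosome 1 from 71557150 to 71579631, plus strand. Atic was at 1.99, 2.18 and 2.05 FPKM in the controls and at 2.38, 2.38 and 1.93 FPKM in the treated mice. Sulfasalazine mice 1 and 2 were above the control range and mouse 3 below it. The log2 fold change was 0.07 with a 95% interval from -0.19 to 0.33 (limma, adjusted p = 0.908), the narrowest of the 9 on this scale.

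Some exon bases are shared with genes on the other strand in GENCODE M21: 1014 of Gart with Gm15964, 499 of Aldh1l1 with Gm15756, 184 of Shmt1 with Smcr8, 37 of Mthfd1 with Gm47525 and 32 of Shmt2 with Ndufa4l2. No label or header says whether strand was used, so reads of such bases cannot be told apart.

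The treated mice did not share a pattern across the 9 genes. Relative to the control mean on the log2(FPKM + 1) scale, sulfasalazine mouse 1 was at -0.38 for Shmt1, -0.39 for Aldh1l1 and -0.54 for Ftcd, but at 0.53 for Slc19a1 and 0.31 for Slc46a1. Sulfasalazine mouse 2 was at 0.49 for Shmt1, 0.28 for Mthfd1 and 0.26 for Aldh1l1, and at -0.27 for Slc46a1. In sulfasalazine mouse 3, Aldh1l1 was at 0.34 and Slc19a1 at 0.55, with Slc46a1 at -0.45 and Ftcd at -0.57. The treated mice thus shared a direction at Slc19a1, above the control mean, and at Ftcd, below it, with sulfasalazine mouse 2 at only -0.03 for Ftcd.

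**Figure D2:**
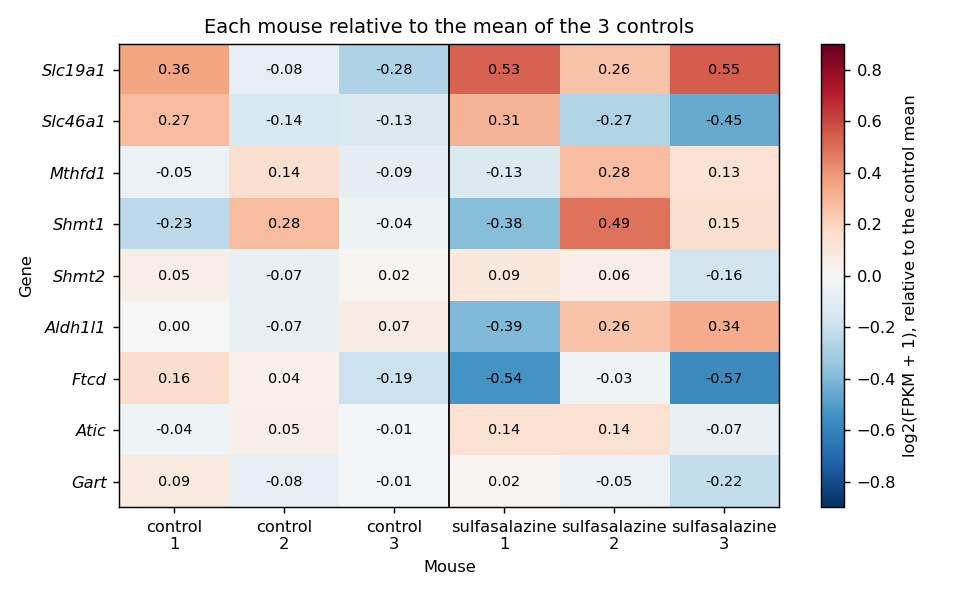
Each cell gives a gene's log2(FPKM + 1) in 1 mouse minus the mean of the 3 control mice, with red above and blue below that mean. The row of Slc19a1 is red in the 3 treated mice (0.53, 0.26 and 0.55) and that of Ftcd is blue (-0.54, -0.03 and -0.57), while Shmt1 runs from -0.38 to 0.49 within the treated group.

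Of the 9 genes, 5 had their lowest value in sulfasalazine mouse 3, 3 in sulfasalazine mouse 1 and 1 in control mouse 3. Over all tested loci 17.2% were lowest in sulfasalazine mouse 3 and 13.5% in sulfasalazine mouse 1. The highest value of the 9 fell in sulfasalazine mouse 2 for 3 genes, and in control mouse 1, sulfasalazine mouse 1 and sulfasalazine mouse 3 for 2 genes each. Sulfasalazine mouse 2 also had the largest share of highest values over all tested loci. That share was 18.7% in control mouse 1, 16.9% in sulfasalazine mouse 1 and 10.6% in sulfasalazine mouse 3. Summed over the 9, the FPKM was 303, 302 and 293 in the control mice and 253, 341 and 310.5 in the treated mice, so the treated mice lay on both sides of the controls.

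Ratios between the 9 genes stood near the background as well. Of 36 ratios, the groups did not overlap for 6, or 16.7%, and the same held for 13.8% of all ratios between tested loci above 0 in every library. The ratio of Slc19a1 to Slc46a1 was among those 6, with 0.164, 0.138 and 0.104 in control and 0.191, 0.224 and 0.346 in treated mice. That of Mthfd1 to Ftcd was 0.767, 0.957 and 0.956 in control and 1.19, 1.11 and 1.47 in treated mice. Slc19a1 or Ftcd entered 5 of the 6, and these 2 examples were picked after the values were seen.

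The 9 genes spanned a wide range of levels, and the gaps between them depended on the length by which a locus was divided. In FPKM as deposited, Aldh1l1 was highest in control livers at 109 ± 5.21, followed by Ftcd at 49.6 ± 6.17, Shmt2 at 45.8 ± 2.0, Mthfd1 at 44.0 ± 3.95 and Shmt1 at 31.1 ± 5.87 (SD, n = 3 each). Lower were Slc46a1 at 10.2 ± 1.93, Gart at 6.34 ± 0.419, Atic at 2.07 ± 0.0940 and Slc19a1 at 1.41 ± 0.560. The control ranges of Ftcd and Shmt2, of Shmt2 and Mthfd1, and of Atic and Slc19a1 overlapped, and the other neighbours in this order did not.

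The deposited values behave as length-weighted sums of transcript FPKM divided by the union of all exons assembled at the locus. Of 4213 loci with 2 or more transcripts, all of them in GENCODE M21, 3475 (82.5%) gave whole numbers to 6 decimals when multiplied by that union, and 7 (0.166%) did so when multiplied by the summed transcript lengths. A whole number here lay within 0.01 of the sixth decimal place in all 6 libraries. The union that fitted each folate gene was 1.04 times the length of its principal mRNA for Shmt2 and 1.09 times for Mthfd1, but 1.98 times for Slc19a1, 2.98 times for Ftcd (5769 against 1933 bases) and 3.01 times for Atic (8562 against 2845 bases). At 7 of the 9 loci an assembled transcript of unknown sequence enters the union, so its length was inferred as the shortest that gave whole numbers in all 6 libraries and held every annotated exon. For 8 genes the next length that fitted was 2 times as long; for Mthfd1 every multiple of 294 bases fitted, so its 3528 is the least certain. The annotated exons alone set a lower bound of 1.65 times the principal mRNA for Ftcd and 2.81 times for Atic.

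Rescaled to the principal mRNA, the control means were 148 ± 18.4 FPKM for Ftcd and 154 ± 7.35 for Aldh1l1 (SD, n = 3 each), with overlapping ranges. Atic came to 6.24 ± 0.283 and Gart to 7.39 ± 0.488 FPKM, and Slc19a1, at 2.79 ± 1.11, was then below Atic without overlap. Such a rescaling credits every fragment of a locus to its principal mRNA, which the deposited values cannot test. The order of the 9 means stayed the same but for Mthfd1 and Shmt2, whose ranges overlapped on both scales. The rescaling multiplies all 6 mice by the same number, so plain FPKM ratios between groups are not touched by it. The fold changes on the log2(FPKM + 1) scale would move, since the added 1 FPKM is not rescaled, and they were not refitted.

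**Figure D3:**
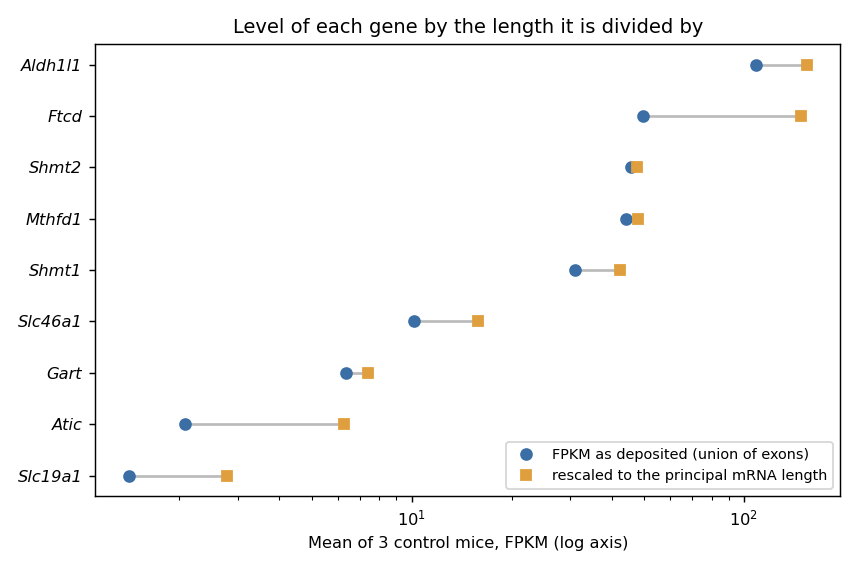
Mean FPKM of the 3 control mice on a log axis, as deposited (circles) and after rescaling to the principal mRNA length (squares), for each folate gene. Ftcd moves from 49.6 to 148 FPKM and Atic from 2.07 to 6.24, while Shmt2 moves from 45.8 to 47.6.

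The rest of the pathway was read from 6 lists: folate transport and retention, cytosolic folate enzymes, mitochondrial folate enzymes, purine synthesis, serine and glycine metabolism, and histidine breakdown. They hold 54 genes, of which 43 were tested, and 0 passed the adjusted threshold in any list. The 34 tested genes outside the 9 had 14 positive and 20 negative log2 fold changes with a median of -0.07. Of these 34, 2 had an unadjusted p under 0.05 (5.88%, against 7.51% of all tested loci), and the groups did not overlap for 8 (23.5%, against 13.2% of all tested loci).

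Of the 6 tested transport and retention genes, with Slc19a1 and Slc46a1 among them, 0 passed. Folr2, a folate receptor that marks resident macrophages, was at 2.62, 2.18 and 5.36 FPKM in control and at 2.49, 2.91 and 2.5 FPKM in treated mice. Its single high value was in control mouse 3, the mouse with the high macrophage markers given above, and their part in it was not tested. Folr1, the epithelial folate receptor, stayed at or under 0.0497 FPKM. Fpgs, which adds the glutamate tail that keeps folate in the cell, had 37.4 ± 8.03 and 35.2 ± 5.46 FPKM (SD, n = 3 each). Ggh, which removes that tail, was at 3.07, 3.66 and 3.20 FPKM in control and at 2.98, 2.79 and 2.79 FPKM in treated mice, all treated mice being below all controls (limma, adjusted p = 0.786).

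Among the 10 cytosolic enzymes listed, 6 of them among the 9 folate genes, all were tested and 0 passed, with a median of 0.07. Mthfs, which returns folinic acid to the active folate pool, was at 0.696, 1.28 and 1.12 FPKM in control and at 1.68, 1.71 and 1.11 FPKM in treated mice, at a locus that also holds Bcl2a1b and Gm29094 (log2 fold change 0.30, SE 0.19; limma, adjusted p = 0.786). Sulfasalazine mice 1 and 2 were above the control range and sulfasalazine mouse 3 within it. Mtr, the methionine synthase that passes the folate methyl group to homocysteine, had 1.95 ± 0.382 and 2.27 ± 0.178 FPKM (SD, n = 3 each; limma, adjusted p = 0.846). Tyms, the thymidylate synthase of dividing cells, was at 4.01, 4.66 and 4.02 FPKM in control and at 1.95, 4.88 and 4.68 FPKM in treated mice, with sulfasalazine mouse 1 alone low.

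In the mitochondrial list, which includes Shmt2, 0 of 8 tested genes passed, with a median of -0.08. Dld, the dihydrolipoamide dehydrogenase shared by the glycine cleavage system and other complexes, was at 18.5, 21.1 and 20.6 FPKM in control and at 15.8, 15.4 and 16.3 FPKM in treated mice. All treated mice were below all controls (log2 fold change -0.32, SE 0.11; limma, unadjusted p = 0.0277, adjusted p = 0.605). Amt, the aminomethyltransferase of the same system, had 8.82 ± 3.30 and 11.8 ± 1.81 FPKM (SD, n = 3 each) at a locus that also holds Nicn1. Sardh, the sarcosine dehydrogenase that feeds carbon units to folate, was at 92.3, 82.4 and 90.0 FPKM in control and at 66.3, 112 and 87.0 FPKM in treated mice, lowest in sulfasalazine mouse 1 and highest in sulfasalazine mouse 2, as were Shmt1 and Mthfd1.

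The mitochondrial enzymes Mthfd2 and Mthfd1l, which complete the route from serine to formate, lay below the filter. Mthfd2 was at 0.484, 0.285 and 0.309 FPKM in control and at 0.253, 0.267 and 0.277 FPKM in treated mice. Mthfd1l was at 0.315, 0.349 and 0.365 FPKM in control and at 0.679, 0.511 and 0.485 FPKM in treated mice. With no filter, neither passed (limma, adjusted p = 0.869 for Mthfd2 and 0.750 for Mthfd1l).

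For purine synthesis, a list that includes Gart and Atic, 0 of 12 tested genes passed, with a median of 0.04. Prps1, which makes the ribose donor of the pathway, was at 5.61, 7.38 and 6.92 FPKM in control and at 4.37, 4.63 and 3.75 FPKM in treated mice. All treated mice were below all controls (log2 fold change -0.54, SE 0.13; limma, unadjusted p = 0.00699, adjusted p = 0.427). Adss, which commits inosinate to adenylate, was at 5.57, 4.47 and 4.34 FPKM in control and at 5.60, 6.22 and 6.24 FPKM in treated mice (limma, adjusted p = 0.685). Paics, the most abundant listed purine enzyme outside the 9, had 38.8 ± 13.7 and 36.0 ± 2.39 FPKM (SD, n = 3 each).

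In serine and glycine metabolism 0 of 6 tested genes passed. Gnmt, the glycine methyltransferase that is also a folate-binding protein of the liver, was at 519.5, 577 and 511 FPKM in control and at 439, 703 and 523 FPKM in treated mice, again lowest in sulfasalazine mouse 1 and highest in mouse 2. Sds, the serine dehydratase, was at 16.0, 8.49 and 19.1 FPKM in control and at 8.87, 6.79 and 9.58 FPKM in treated mice (log2 fold change -0.67, SE 0.30; limma, adjusted p = 0.711). Its relative Sdsl had 3.80 ± 1.09 and 2.48 ± 0.811 FPKM (SD, n = 3 each; limma, adjusted p = 0.729).

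Histidine breakdown supplies the carbon that Ftcd handles. Its list of 4 genes includes Ftcd itself, at -0.38, and 0 of the 4 passed. The median of -0.28 thus holds the value of Ftcd. Hal, the first enzyme, was at 33.3, 34.5 and 37.7 FPKM in control and at 30.7, 30.0 and 27.6 FPKM in treated mice (log2 fold change -0.25, SE 0.12; limma, adjusted p = 0.726). Uroc1, the next, was at 80.6, 81.5 and 94.3 FPKM in control and at 63.5, 69.3 and 72.7 FPKM in treated mice (log2 fold change -0.31, SE 0.14; limma, adjusted p = 0.685). Treated and control mice did not overlap for these, nor for Amdhd1, which follows them. Amdhd1 had 42.2 ± 3.69 and 47.8 ± 1.28 FPKM (SD, n = 3 each), higher in the treated mice (limma, adjusted p = 0.816), and was named after its values were seen. The groups thus did not overlap for 3 of the 4 genes, against 13.2% of all tested loci. Hal, like Sds, is also on the list of 6 periportal markers, whose log2 fold changes ran from -0.67 for Sds to -0.01 for Cyp2f2 and Gls2, with a median of -0.24; their part in these values was not tested.

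**Figure D4:**
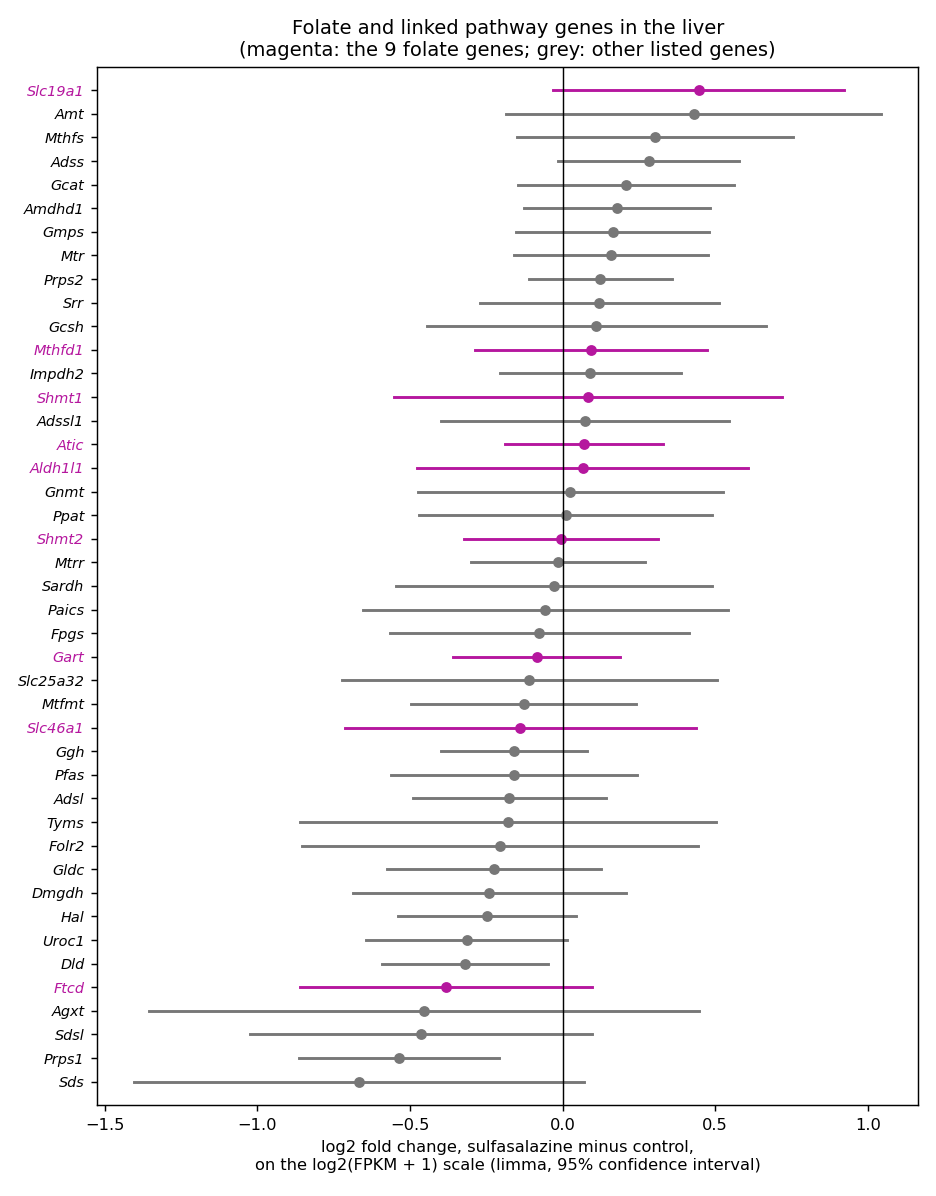
Log2 fold change of treated against control livers, on the log2(FPKM + 1) scale, with its 95% confidence interval from limma, for the 43 tested genes of the 6 lists; magenta marks the 9 folate genes. The intervals of all 9 cross 0, and those that do not are Dld and Prps1, neither of which passed after adjustment.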

How the data were processed

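The deposited table gives FPKM per locus for 6 liver libraries, per the file headers. Per the submitters' processing notes, the authors used cutadapt, FastQC, Bowtie2 and StringTie with the build GRCm38.p5; versions and the annotation release are not given in the sources used here. Ribosomal RNA was removed from total RNA of RIN over 7.0, per the labels' protocols. Gene positions and transcript lengths come from GENCODE M21 on GRCm38, and promoters from RefSeq on GRCm38.p6. Groups follow the sample titles.

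FPKM gives no read total. At loci of 1 annotated transcript, FPKM times length piled up at 1 value per library and at steps of 0.5 of it, taken as 1 fragment, which gave the depth estimates. Of values under 3 fragments, 46.4 to 53.9% lay within 0.05 fragments of such a step (20.0% with no steps), so whole reads were not recovered and no count test was run. The 11969 loci that reached 1 FPKM in 3 or more libraries were fitted on the log2(FPKM + 1) scale by limma 3.58.1 (R 4.3.3, variance trend on), and p-values were adjusted by Benjamini-Hochberg with a threshold of 0.05. Nothing says how the mice were sampled from their groups of 10, so p-values measure only the spread between these samples. The members, lists, tests and alternatives were chosen with earlier results of these data known. Genes outside the 9 were named by rule: per list the 2 smallest unadjusted p and the highest mean FPKM, plus 8 fixed genes; Amdhd1 was added after its values were seen. Some genes of the pathway are not reported here and were left out of the lists, though not of the fit. The procedure was tested on simulated data. Figures used matplotlib 3.10.9 in Python 3.11.15. The doses of 250 and 500 mg/kg were not analysed here.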

Additional observations from a re-analysis of the deposited data

How the results depend on the processing

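Under each of 14 alternatives, 0 of the 9 folate genes were called by limma; the count at an unadjusted p under 0.05 was 0 in 12 of them and 1 in the other 2. Those were Slc19a1 without control mouse 1 (log2 fold change 0.62, unadjusted p = 0.0107, adjusted p = 0.483) and Ftcd without sulfasalazine mouse 2 (-0.56, unadjusted p = 0.0192, adjusted p = 0.647). Of 126 values of single genes, 118 kept their direction. The 8 that turned all came from leaving out a mouse: 3 for Shmt2, 2 each for Shmt1 and Aldh1l1 and 1 for Slc46a1. Over all 6 such fits, turned or not, the values ran from -0.12 to 0.32 for Shmt1, -0.053 to 0.076 for Shmt2, -0.068 to 0.30 for Aldh1l1 and -0.36 to 0.019 for Slc46a1. The median of the 9 ran from -0.034, without sulfasalazine mouse 2, to 0.052 in the fits that leave out a mouse, and was 0.01 after quantile normalization. The 2 loci called in all became 1 with a pseudocount of 0.1, 0 with no filter, 45 without the trend, 12 over loci with an Ensembl transcript, 6 with FPKM summed per symbol and 1 to 8 when leaving out a mouse; the cause was not tested. Adding a replicate block gave 0 called loci and 0 of the 9. The deviations of mice with the same number had correlations near 0 (r = 0.00967, -0.0668 and -0.0222), and the labels do not say that the number pairs mice. At the estimated depth, counting error alone (1 over the square root of the fragments) was 6.8 to 11% of a mouse's Slc19a1 value, 5.07 to 6.01% for Atic and at most 5.44% for the other 7 genes.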

Other observations

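The table holds 8 further rows that carry the name of a folate gene but no Ensembl transcript: 3 for Shmt1, 3 for Aldh1l1 and 2 for Mthfd1. None is above 2.34 FPKM in any mouse. The highest is a Mthfd1 row, at 0.842, 1.07 and 0.0383 FPKM in control and at 1.08, 0.288 and 2.34 FPKM in treated mice. These rows were left out of the values above.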
